A study of Rattus norvegicus and Mus musculus with 9 samples.

Results

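The genes described here are 8 transcription factors: the zinc finger factors Zic1, Zic2, Zic4 and Zic5, the homeobox factors Otx2 and Gbx2, the POU factor Pou3f1 and the forkhead factor Foxd3. They were taken by gene symbol from the platform annotation of a rat array and a mouse array, with the probe set of the highest mean signal kept for each symbol. Of the 8 genes, 6 were found among 14506 named rat genes and all 8 among 19938 named mouse genes; no rat probe set was annotated to Otx2 or Gbx2 alone, so these were read in mouse cells only. The 2 tables together held 22330 named genes.

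Expression was measured on 9 arrays with 1 RNA sample each, 3 arrays per group. Rat embryonic stem (ES) cells of the DA strain had been kept in 3I medium, a name used for media that block GSK3, MEK and the FGF receptor with 3 inhibitors. They were set against rat embryonic fibroblasts of the same strain, kept in GMEM with 10% fetal bovine serum. Mouse ES cells of strain C57/BL6, kept in that serum medium with leukaemia inhibitory factor (LIF), were hybridized to the second platform. Per the series' design text, mouse RNA was taken after feeder removal; for rat ES cells the text does not mention feeders. The rat groups differed in medium as well as cell type, and the ES groups in species, platform and medium, so these factors cannot be told apart. Whether replicate arrays stand for separate cultures is not stated, and p-values then reflect array-to-array spread that may be technical.

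Pluripotent cells pass from a naive state, as in the early epiblast and in classical mouse ES cells, to a primed state, as in the epiblast after implantation. Otx2, Pou3f1 (Oct6), Zic2, Zic5 and Foxd3 are known for roles in this transition, Otx2 and Pou3f1 as regulators that rise as naive cells are released toward the primed state. Gbx2 is known in mouse ES cells as a target of LIF and STAT3 signalling that favours self-renewal. The ZIC genes lie in vertebrate genomes as neighbours transcribed away from each other, Zic1 beside Zic4 and Zic2 beside Zic5, and Zic1 and Zic4 are best known from the dorsal neural tube and the cerebellum.

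The promoter windows of Zic2 and Zic5 are shown because both genes were higher together in rat ES cells, and that of Zic4 because it belongs to the pair that was not. Each runs from 250 bases before to 50 bases after the annotated start, from RefSeq, build GRCr8, with the GC box GGGCGG, or its reverse complement CCGCCC, in capitals. The table held windows of 5 of the 8 genes. Zic2 is at chr15:105983092-105983391 on the plus strand, Zic5 at chr15:105973620-105973919 on the minus strand and Zic4 at chr8:100795852-100796151 on the plus strand.
Zic2: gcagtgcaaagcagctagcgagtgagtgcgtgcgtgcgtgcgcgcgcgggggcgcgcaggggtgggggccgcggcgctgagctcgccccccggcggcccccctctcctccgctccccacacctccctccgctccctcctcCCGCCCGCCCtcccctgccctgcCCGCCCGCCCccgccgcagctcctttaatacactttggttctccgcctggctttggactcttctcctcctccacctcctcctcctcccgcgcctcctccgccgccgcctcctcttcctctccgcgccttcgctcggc
Zic5: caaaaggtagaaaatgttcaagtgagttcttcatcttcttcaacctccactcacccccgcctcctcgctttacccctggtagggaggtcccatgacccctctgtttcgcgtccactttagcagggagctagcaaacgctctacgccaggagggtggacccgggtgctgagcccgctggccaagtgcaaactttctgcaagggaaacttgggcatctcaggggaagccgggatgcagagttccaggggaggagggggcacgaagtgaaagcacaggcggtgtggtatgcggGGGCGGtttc
Zic4: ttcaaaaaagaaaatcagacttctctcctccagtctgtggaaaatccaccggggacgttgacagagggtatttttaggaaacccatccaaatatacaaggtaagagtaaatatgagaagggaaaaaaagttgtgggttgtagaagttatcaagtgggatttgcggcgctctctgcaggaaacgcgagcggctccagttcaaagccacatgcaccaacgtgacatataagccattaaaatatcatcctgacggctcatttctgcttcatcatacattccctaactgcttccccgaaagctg
The windows of Zic5 and Zic2 lie on opposite strands with 9172 bases between them. The Zic2 window was 74.3% G and C and held 34 CpG dinucleotides, that of Zic5 58.3% with 13, and that of Zic4 44% with 10, where the medians over 33469 rat windows were 51.7% and 7. The GC box, a sequence bound by SP and KLF factors, was found 4 times in the Zic2 window, as overlapping matches in a pair of runs, once in that of Zic5 and not in that of Zic4, on either strand, and in 33.1% of all windows. Neither the Zic2 nor the Zic5 window held the TATA box TATAAA (14.2% of all windows), the octamer ATGCAAAT of POU factors (1.78%), the OTX core TAATCC (7.17%), the ZIC core CCTGCTG (9.64%) or the TCF/LEF core CTTTGA (16.1%), on either strand. The last was found once in the Zic4 window. A match is a run of letters and was not read as a bound site.

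The first comparison asked which of these factors distinguished rat ES cells from rat fibroblasts. Zic2 and Zic5 were higher in rat ES cells, by 28.2-fold and 11.0-fold, and the other 4 genes measured in rat, Zic1, Zic4, Foxd3 and Pou3f1, differed by at most 1.30-fold in either direction. With a gene called at an adjusted p under 0.05 in limma and a difference of at least 2-fold, 2 of 6 were called higher and 0 lower, where 1, Zic1, was lower at an unadjusted p under 0.05. Of all 14506 genes, 10.6% were called higher and 10.1% lower, 20.7% in all. Counts called in each gene list below are to be read beside these shares. The median log2 difference over the 6 genes was 0.18, against -0.00069 over all genes.

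Zic2 had log2 signals of 9.99, 9.91 and 9.85 on the 3 rat ES arrays, against 4.90, 5.06 and 5.33 on the 3 fibroblast arrays. Every rat ES array lay far above every fibroblast array, and the fibroblast signals lay below the rat array medians of 5.71 to 5.74. The log2 difference was 4.82 (SE 0.11, 95% interval 4.56 to 5.07, limma adjusted p = 8.38e-09), and it stood at rank 19 from the top among the 14506 genes. Zic5 had signals of 8.83, 8.66 and 8.66 in rat ES cells, against 5.51, 4.87 and 5.39 in fibroblasts. Its groups did not overlap either, and its spread was wider in fibroblasts (SD 0.343, n = 3) than in rat ES cells (SD 0.0995, n = 3). The log2 difference of Zic5 was 3.46 (SE 0.16, 95% interval 3.10 to 3.82, limma adjusted p = 2.76e-07), at rank 90. Signals below the array medians were not separated from background here, so both folds depend on how low a signal these probe sets can report.

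Zic1 moved slightly the other way, with signals of 5.97, 6.05 and 5.94 in rat ES cells, against 6.38, 6.34 and 6.39 in fibroblasts. The rat ES arrays all lay below the fibroblast arrays, as for 28.3% of all genes, but the log2 difference was -0.38 (SE 0.07, limma adjusted p = 0.00102), below 2-fold. Zic4 had signals of 4.67, 4.93 and 5.20 in rat ES cells and 5.04, 4.60 and 5.08 in fibroblasts. These overlapped, all 6 below their array medians, with a log2 difference of 0.02 (95% interval -0.36 to 0.40, limma adjusted p = 0.931). Whether Zic4 was silent or its probe set unresponsive cannot be told apart. Foxd3, a forkhead factor expressed both in the epiblast and in the neural crest, had signals of 7.11, 7.06 and 7.06 in rat ES cells, against 6.75, 6.63 and 6.85 in fibroblasts. The rat ES arrays all lay higher, as for Zic2, Zic5 and 33.2% of all genes; without overlap in either direction were 4 of the 6 genes and 61.5% of all genes. The log2 difference of Foxd3 was 0.33 (SE 0.08, limma adjusted p = 0.00503), again below 2-fold. The annotation listed no RefSeq transcript for the rat probe set of Foxd3, and whether that probe set reports the gene was not tested. Pou3f1 had signals of 6.41, 6.35 and 6.35 in rat ES cells and 6.36, 6.33 and 6.47 in fibroblasts, which overlapped. Its log2 difference was -0.02, with a 95% interval from -0.17 to 0.14 (limma adjusted p = 0.867), an interval that leaves out changes of more than about 0.17 in either direction on this probe set. The adjusted p alone, with no fold threshold, was under 0.05 for 4 of the 6 genes, against 56.3% of all genes.

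**Figure D1:**
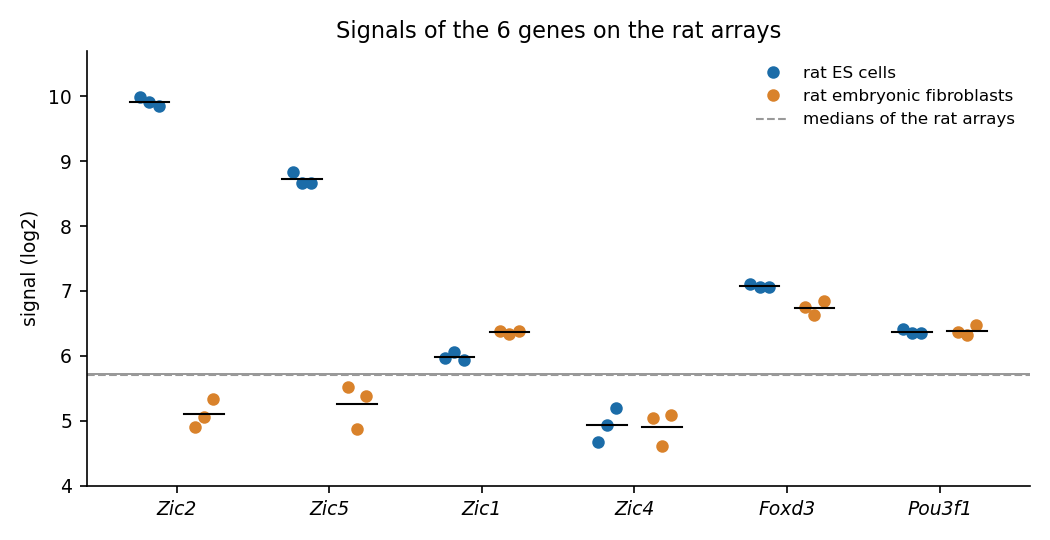
Log2 signals of the 6 genes measured on the rat arrays, in rat ES cells (blue, left of each pair) and rat embryonic fibroblasts (orange, right), 3 arrays each; points are arrays, black bars are group means, and the grey lines span the medians of the 6 arrays. The rat ES arrays sit at 9.85 to 9.99 for Zic2 and 8.66 to 8.83 for Zic5, above fibroblast arrays that lie under the medians, while the groups lie close together for the other 4 genes.

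The paired genes were then set against each other within each array, where only the change of such a contrast between groups was read, since levels of different probe sets are not comparable. Zic2 minus Zic1 was 3.93 ± 0.087 on the log2 scale in rat ES cells and -1.27 ± 0.208 in fibroblasts (SD, n = 3 each), and Zic5 minus Zic4 was 3.79 ± 0.355 in rat ES cells and 0.35 ± 0.111 in fibroblasts. Both contrasts restate the differences of the single genes given above, and they take in signals below the array medians, those of Zic4 on all arrays and of Zic2 and Zic5 in fibroblasts. Within the pair that moved, Zic2 minus Zic5 was 1.20 ± 0.045 in rat ES cells and -0.16 ± 0.409 in fibroblasts, with the same limit. Each of 6 such contrasts gave a two-sided exact permutation p of 0.1 (adjusted p = 0.1), the smallest that 3 arrays against 3 allow, so the test cannot pass 0.05.

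By the order of genes in the RefSeq table, Zic5 and Zic2 are adjacent protein-coding genes on rat chromosome 15, and Zic1 and Zic4 on rat chromosome 8. Of the 8 nearest measured genes around Zic5 and Zic2, 4 on each side, 1 was called higher and 1 lower. Of all genes, 20.7% were called. Clybl, next to Zic5, was higher by 1.17 on the log2 scale (limma adjusted p = 4.39e-05) and Pcca, which encodes a subunit of propionyl-CoA carboxylase and follows Zic2, differed by 0.44. Of the other 6, Nalcn, a sodium leak channel gene, was called lower at -1.06, and Tm9sf2, Tmtc4, Ggact, Timm8a2 and Gpr183 lay between -0.95 and 0.29 and were not called. Around Zic1 and Zic4, the scramblase family gene Plscr2 (-2.30) and the collagen lysyl hydroxylase gene Plod2 (-4.71) were called lower and the other 6 neighbours were not called.

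**Figure D2:**
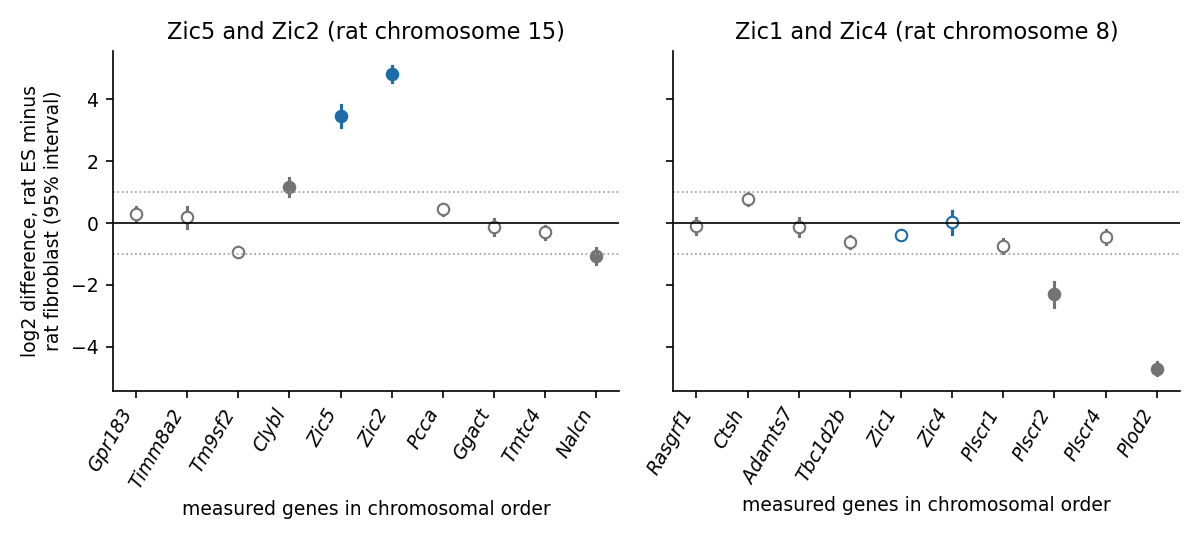
Log2 difference of rat ES minus rat fibroblast (y axis, with 95% intervals from limma, 3 arrays per group) for the ZIC gene pairs (blue) and the 4 nearest measured genes on each side (grey), in the order of the rat RefSeq table; filled points were called, open points were not, and dotted lines mark 2-fold. Zic5 and Zic2 stand at 3.46 and 4.82, with Clybl at 1.17 the only called increase among their neighbours, while Zic1 and Zic4 lie at -0.38 and 0.02.

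Close relatives of these factors were measured as well. Of 9 paralogs listed, 7 were measured in rat (Otx1, Crx, Pou3f2, Pou3f3, Pou3f4, Foxd1 and Gbx1). By limma 0 were called in either direction, where 20.7% of all genes were, and 1 had an unadjusted p under 0.05. Their log2 differences ran from -0.23 for Otx1, a homeobox factor of the forebrain (limma adjusted p = 0.0243), to 0.11 for Gbx1, with a median of 0.0008. Foxd1, a forkhead factor known from kidney stroma, had signals of 7.63, 7.63 and 7.66 in rat ES cells and 7.69, 7.62 and 7.61 in fibroblasts, which overlapped. The rat probe sets of Foxd1 and Gbx1, like that of Foxd3, had no RefSeq transcript listed. Of the GLI and GLIS factors, whose zinc fingers resemble those of the ZIC proteins, 4 of 6 were measured and 2 were called lower: Gli3 fell by 1.69 and Gli2 by 1.48 on the log2 scale, both transcription factors of hedgehog signalling, whereas Glis2 (-0.93) and Gli1 (-0.18) were not called. The median of these 4 was -1.21.

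Other genes used as markers of formative and primed cells went both ways. Of 15 listed, 11 were measured in rat, 5 were called higher and 1 lower in rat ES cells, and their median log2 difference was -0.13. The increases were in Cldn6 (3.80), a claudin of tight junctions, the de novo DNA methyltransferase gene Dnmt3b (2.55), the TGF-beta family ligand gene Nodal (2.38) and the ETS factor genes Etv5 (1.76) and Etv4 (1.62). The decrease was in the HMG box factor gene Sox4 (-1.92). Fgf5, a growth factor gene widely used to mark primed epiblast, had signals of 4.29, 4.49 and 4.57 in rat ES cells, against 4.81, 5.04 and 4.92 in fibroblasts. Every rat ES array was lower, at a log2 difference of -0.47 (limma adjusted p = 0.00283), and all 6 signals lay below the array medians. Sox11 (-0.88), Sall2 (-0.64), Tcf7l1 (-0.22) and Dnmt3a (-0.13) were not called. Dnmt3b varied most among the called genes of this list within rat ES cells, at 7.45, 6.82 and 6.76.

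**Figure D3:**
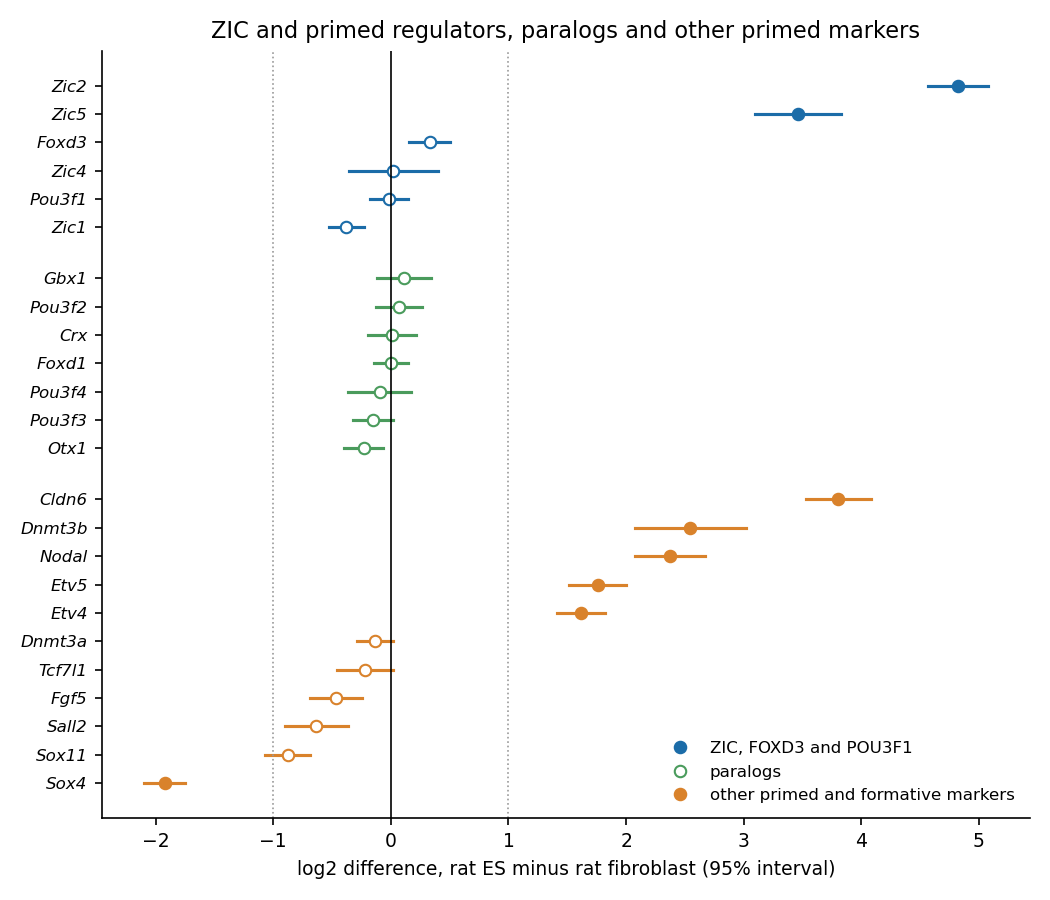
Log2 difference of rat ES minus rat fibroblast with 95% intervals from limma (3 arrays per group) for Zic1, Zic2, Zic4, Zic5, Foxd3 and Pou3f1 (blue), their measured paralogs (green) and other primed and formative markers (orange); filled points were called, open points were not, and dotted lines mark 2-fold. Zic2 at 4.82 exceeds the largest difference of the primed list, 3.80 for Cldn6, and all 7 paralogs lie between -0.23 and 0.11.

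Naive factors were read beside them. Of 16 listed, 13 were measured and 10 were called, all higher in rat ES cells; the median log2 difference was 4.58. The largest were Nanog (6.73), Tcl1a (6.72), Dppa3 (6.43) and Tfcp2l1 (5.48). Fbxo15 (0.63), Nr5a2 (-0.10) and Nr0b1 (-0.30) were not called. The shared factors Pou5f1, Sox2 and Lin28a were all called higher. Of 6 measured markers of the primitive streak and of gastrulation, the T-box factor gene Tbxt was called higher, at 6.31 ± 0.472 in rat ES cells and 4.53 ± 0.063 in fibroblasts (SD, n = 3 each), and the other 5 were not called.

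By a fixed measure, the root mean square difference of the 6 rat values after each gene's mean was subtracted, the called genes most like Zic2 were Pramel6 (0.0974 on the log2 scale) and Klf5 (0.125), a Kruppel-like factor of naive cells. Those most like Zic5 were Jam2 (0.056), a junctional adhesion molecule gene, and C2cd5 (0.114). With 6 arrays in 2 groups this likeness reflects the size of the group difference and the spread within groups, and nothing more was read from it.

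Markers of other cells were examined, since ZIC genes and Foxd3 also mark neural and neural crest cells and a culture can hold several cell types. In bulk RNA, fewer cells of a type and less RNA per cell cannot be told apart. A lower call or sum here is relative to fibroblasts, where some of these genes were bright. Mean log2 signals in fibroblasts were 9.83 for Ncam1, 9.28 for Snai2 and 9.68 for Dab2. Whether the rat ES cultures held cells of these types was not tested. Of 13 measured early neural markers, 3 were called, where 20.7% of all genes were. All 3 were lower in rat ES cells: Map2 (-3.39), Ncam1 (-3.25) and Nes (-1.87). Tubb3, a neuronal tubulin gene, went the other way below 2-fold, at 8.77, 8.78 and 8.65 in rat ES cells, against 8.22, 8.19 and 8.03 in fibroblasts (log2 difference 0.58, limma adjusted p = 0.000233). Pax6, a defining factor of neural progenitors, was under its array median on all 6 arrays (log2 difference -0.17). Summed linear signals of the neural list ran from 1077 to 1098 in rat ES cells and from 2151 to 2241 in fibroblasts. A sum gives most weight to the brightest probe sets and does not stand for every marker of its list. Here these were Tubb3 in rat ES cells (mean 8.73) and Ncam1 in fibroblasts (mean 9.83), and the same limit holds for each sum below. Of 11 neural crest markers, Tfap2a was called higher (1.17), Snai2 (-4.41) and Twist1 (-1.87) lower, and the crest factor Sox10 was not called (-0.18). The summed signals of that list were 801 to 904 in rat ES cells and 1782 to 1864 in fibroblasts. Of 8 primitive endoderm markers, Hnf4a was called higher (1.14), Dab2 (-4.28) and Gata6 (-1.78) lower, with sums of 366 to 398 in rat ES cells and 1199 to 1263 in fibroblasts. Of 6 trophoblast markers, 2 were called higher in rat ES cells, Cdx2 (3.80) and Tfap2c (3.34), and 1 lower, Gata3 (-1.71), with sums of 962 to 1029 in rat ES cells and 335 to 390 in fibroblasts. The other 3 were not called, Krt7 at -0.95, Hand1 at -0.09 and Elf5 at 0.11. Cdx2, Tfap2c and the summed signal of the list were higher in rat ES cells, as Zic2 and Zic5 were, while Gata3 was lower, and the part of such cells in the Zic2 and Zic5 result was not tested. Of 12 fibroblast markers, 11 were called, all lower in rat ES cells, led by Fbn1 (-5.79), Pdgfrb (-5.18), Vim (-4.81) and Thy1 (-4.73), with sums of 2138 to 3357 in rat ES cells and 51985 to 54906 in fibroblasts. Some fibroblast marker signal was present on rat ES arrays, Col1a1 among it at 10.15 ± 0.423 (log2, SD, n = 3), against 13.89 ± 0.049 in fibroblasts.

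The mouse table was used to ask where the same factors stood in ES cells of the other species. Its values differ in kind: the 3 mouse arrays held 16565 to 18500 distinct values over 35557 probe sets, against 28151 to 28224 over 29215 on the rat arrays, and 15447 mouse probe sets had 1 value on all 3 arrays. Zic2 (7.16), Pou3f1 (7.69) and Gbx2 (7.23) were among those with 1 value on all 3, so no SD is given for mouse cells, and the 3 arrays were not treated as independent measurements. On the first mouse array, 9 probe sets carried the value of Zic2, 4 that of Pou3f1 and 7 that of Gbx2. Levels were therefore read only as percentiles within each array, among the 12114 symbols found in both tables, and were not tested across the separately normalized tables.

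Pou3f1 stood at percentiles 79.8, 81.2 and 79.5 on the mouse ES arrays, and at 46.8, 45.4 and 45.0 on the rat ES arrays, where fibroblasts were at 44.4, 44.1 and 45.9. Its place was thus high in mouse ES cells and near the middle in both rat groups. The rat values of Pou3f1 come from 1 probe set. Whether the gene was alike in both rat groups or that probe set unresponsive cannot be told apart. Zic2 stood at 71.7, 73.2 and 71.5 in mouse ES cells, and at 94.9, 94.3 and 94.0 in rat ES cells, where fibroblasts were at 20.6, 23.9 and 27.5. Zic5 stood at 74.6, 76.3 and 74.8 in mouse ES cells, and at 84.8, 81.8 and 82.0 in rat ES cells, where fibroblasts were at 31.2, 20.4 and 28.5. Both genes were thus in the upper part of all ES arrays and in the lower part of all fibroblast arrays. Zic5 depended on the probe set in mouse: the other mouse probe set of the gene, at a log2 signal of 6.12 against 7.35, put it at percentile 54.3, a choice made after seeing the data. Foxd3 stood at 62.5, 65.0 and 62.3 in mouse ES cells, and at 57.0, 55.7 and 55.3 in rat ES cells. Its rat values come from the probe set with no RefSeq transcript listed. Zic4 was low in all cells, at 24.2 to 28.1 on the mouse ES arrays, 17.6 to 26.6 on the rat ES arrays and 16.1 to 23.1 on the fibroblast arrays. The mouse probe set kept for Zic4 had no RefSeq transcript listed. The other mouse probe set, which had a RefSeq transcript listed, was at 4.36 on each mouse array and put Zic4 at percentile 23.7. Zic1 stood at 11.6, 13.9 and 11.6 in mouse ES cells, and at 40.3, 41.2 and 39.1 in rat ES cells, where its signal was lower than in fibroblasts.

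Otx2 and Gbx2, with no named rat probe set, were ranked among all 19938 named mouse genes. Otx2 had log2 signals of 7.67, 7.60 and 7.67 on the mouse arrays and stood at percentiles 84.7, 84.8 and 84.5. Gbx2, at 7.23 on each mouse array, stood at 79.4, 80.5 and 79.3. Pou3f1 on the same scale stood at 84.9, 85.9 and 84.7. Of the mouse paralogs, none of Otx1, Crx, Pou3f2, Pou3f3, Pou3f4, Foxd1, Foxd2, Foxd4 and Gbx1 stood above percentile 61.6 on that scale. The primed marker Fgf5 stood at 56.2, 56.8 and 56.1 among shared symbols in mouse ES cells, and at 12.2, 15.2 and 15.9 in rat ES cells. Dnmt3b stood at 97.8 to 97.9 in mouse ES cells, and at 62.6, 51.8 and 50.9 in rat ES cells. Nodal stood at 89.3, 90.3 and 89.2 in mouse ES cells, and at 90.8, 92.1 and 93.0 in rat ES cells. Of the 11 primed and formative markers in both tables, 9 stood higher on every mouse ES array than on any rat ES array and 2, Nodal and Sox11, lower, where 44.9% and 42.5% of all shared symbols did. Of the 6 genes described here that are in both tables, Pou3f1 and Foxd3 stood higher in this way, Zic1, Zic2 and Zic5 lower, and Zic4 overlapped. These orders were not tested.

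**Figure D4:**
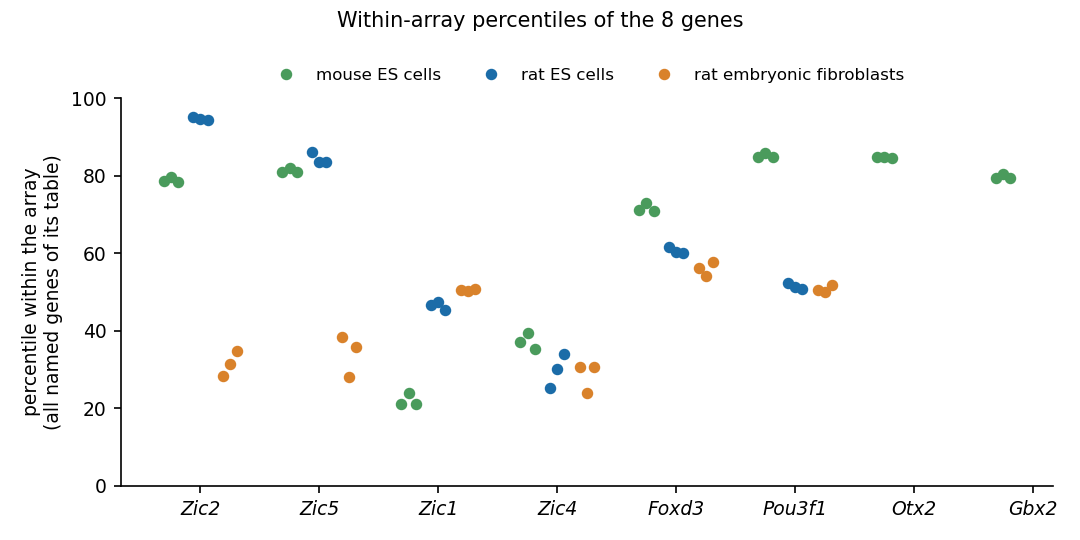
Percentile of the 8 genes within each array among all named genes of its table (y axis, 0 to 100), for mouse ES cells (green), rat ES cells (blue) and rat embryonic fibroblasts (orange); each point is 1 of 3 arrays, and Otx2 and Gbx2 have no rat value. By the probe sets kept, Zic2 and Zic5 lie high in both kinds of ES cells and low in fibroblasts. The other mouse probe set of Zic5 had a lower signal and is not shown. Pou3f1 lies at about 85 in mouse ES cells and near 51 in both rat groups, and Zic4 lies under 40 everywhere.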

How the data were processed

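Total RNA of each sample was labelled with biotin and hybridized to 1 array, per the labels. The deposited values, 1 table of 6 rat arrays and 1 of 3 mouse arrays, are on a log2 scale, as read from their range of 1.23 to 14.4; how the authors corrected and normalized them is not stated in any source used here. Probe sets were named through the supplied platform annotation, which can be old: 1 symbol was listed for 15310 of 29215 rat and 21789 of 35557 mouse probe sets, several for 323 and 1621, and none for 13582 and 12147. Only the first kind was used.

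Differences between rat groups were fitted in R 4.3.3 by lmFit and eBayes of limma 3.58.1, with group as the sole term and no filter on level. Benjamini-Hochberg adjustment ran over all 14506 genes, and calls needed both an adjusted p under 0.05 and an absolute log2 difference of 1 or more. The fit was tested on simulated data. The members and all gene lists were chosen with earlier results of these data known. Named are every member and paralog, up to 4 called genes per list with the largest differences, and 2 most similar genes per called member; other genes with values, among them the uncalled genes of lists, chromosomal neighbours and Col1a1, were chosen after their values were seen. Same-numbered rat arrays did not deviate together (correlations of -0.00044, 0.031 and -0.0003), and no pairing was assumed. Promoter windows come from RefSeq, build GRCr8; other coordinates of that table were used only for the order of genes. Precision is limited by having 3 arrays a group. Alternatives were quantile normalization, median centring, level filters, other rules for probe sets, a trended robust fit, the replicate block, other thresholds and leaving out each array.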

Additional observations from a re-analysis of the deposited data

How the results depend on the processing

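The calls of Zic2 and Zic5 were kept under all 14 other settings of the rat fit, with log2 differences of 4.72 to 4.94 and 3.27 to 3.59 and adjusted p no higher than 1.19e-06 and 6.81e-06. Zic1, Zic4, Foxd3 and Pou3f1 were called under none; Zic1 and Zic4 could be fitted under 13 settings, as could Pou3f1, since the filter at the median of level removed them. Zic1 ran from -0.41 to -0.30 and Foxd3 from 0.28 to 0.40. Pou3f1 changed sign with quantile normalization (0.05257) and median centring (0.05226) and ran from -0.046 to 0.025 as single arrays were left out; Zic4 ran from -0.13 to 0.15 in the same way, below 0 without rat ES replicate 3 (-0.11) or fibroblast replicate 2 (-0.13). With the replicate number as a block, Zic2 differed by 4.82 (adjusted p = 1.19e-06) and Zic5 by 3.46 (adjusted p = 3.29e-06), and no call or count named here changed. With no fold threshold 4 of the 6 genes passed, where 56.3% of all genes did. Among genes above the median of level, 1 GLI or GLIS gene and 0 streak markers were called, in place of 2 and 1, since the filter removed Gli2 and Tbxt. Under the same filter 5 primed and formative, 2 neural and 2 primitive endoderm markers were called, in place of 6, 3 and 3. For trophoblast and fibroblast markers 2 and 9 were called, in place of 3 and 11. All genes called numbered 2308 to 3091 over the settings.

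Percentiles depend on which genes are ranked. Among all named genes, mouse ES and rat ES percentiles were 22.0 and 46.4 for Zic1, 37.2 and 29.8 for Zic4, 85.2 and 51.4 for Pou3f1, 71.6 and 60.7 for Foxd3, 78.9 and 94.7 for Zic2, and 81.3 and 84.4 for Zic5, whose gap was smaller than among shared symbols (75.2 and 82.9). Among the 8215 shared symbols at or above percentile 25 of level in each table, mouse ES and rat ES percentiles were 59.2 and 91.8 for Zic2, 63.7 and 74.9 for Zic5, 70.9 and 22.8 for Pou3f1, and 46.4 and 36.5 for Foxd3; Zic1 and Zic4 have none there. With all probe sets averaged, mouse ES percentiles were 65.4 for Zic5 and 85.2 for Otx2. With the lower mouse probe set they were 54.3 for Zic5 and 23.7 for Zic4. The order of mouse ES and rat ES held for Zic2, Zic5, Pou3f1 and Foxd3 in each of these settings.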

Other observations

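Genes of LIF and STAT3 signalling, known to act upstream of Gbx2 in mouse ES cells, and of Wnt signalling were measured on the rat arrays. Of 8 listed, limma called 3 higher and 0 lower (1, Stat3, was lower at an unadjusted p under 0.05). Higher were the LIF receptor gene Lifr (5.21), the Wnt-responsive factor gene Lef1 (3.96) and the Wnt feedback gene Axin2 (1.98). Socs3, a target of STAT3, differed by 0.90, Ctnnb1 by 0.59, Tcf7 by 0.50, Il6st by 0.27 and Stat3 by -0.18, and none of these was called. Among shared symbols, Axin2 stood at percentiles 46.1, 46.3 and 46.2 on the mouse ES arrays, and at 73.0, 76.4 and 78.9 on the rat ES arrays. Lef1 stood at a mean percentile of 73.8 on the mouse ES arrays and 94.6 on the rat ES arrays.

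The nuclear receptor gene Nr0b1 of the naive list stood at percentiles 99.2, 99.1 and 99.1 among shared symbols in mouse ES cells, and at 16.2, 16.9 and 17.1 in rat ES cells. Rat fibroblasts were at 20.6, 17.4 and 24.2, and all 6 rat signals lay below the array medians. Whether Nr0b1 was silent in rat cells or its probe set unresponsive cannot be told apart. Dppa3 had the opposite order of mouse and rat ES cells, at 45.9, 51.1 and 50.9 in mouse ES cells, and at 99.0, 99.0 and 98.7 in rat ES cells. Species, platform and medium cannot be told apart in these values.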
